A study of Mus musculus with 7 samples.

Results

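The cells described here are naive DNT cells (double-negative T cells, without the CD4 and CD8 coreceptors) with transcripts of Igfbp4, the gene of insulin-like growth factor binding protein 4. They were chosen from 2 single-cell RNA libraries of naive DNT cells as cell barcodes with at least 200 genes, at most 10% mitochondrial UMIs (unique molecular identifiers, each counting an RNA molecule), no UMI of the B cell gene Cd79a, at most 1 UMI of the myeloid gene Lyz2 and at least 1 UMI of Igfbp4. The rule took 106 of 3972 kept barcodes in replicate 1 and 234 of 6525 in replicate 2, which is 340 of 10497 naive DNT barcodes in a series of 27733 kept barcodes. All cells came from spleens of 8-week-old male C57BL/6 mice and were sorted as CD3+ NK1.1− TCRαβ+ TCRγδ−. Naive DNT cells were in addition CD4− and CD8− and did not bind αGal-CD1d or LPC-CD1d tetramers, which mark NKT cells. The comparators were a CD4 T cell library and a CD8 T cell library of unstimulated cells, 1 each. A library of the whole TCRαβ+ gate (TCRab) and 2 libraries of activated DNT cells, which are naive DNT cells stimulated through CD3 and CD28 for 3 days with IL-2 at 20 ng/ml, are used only for the share of cells with Igfbp4. The series describes the DNT libraries as biological replicates. Replicate 1 and the CD4, CD8 and TCRab libraries were made with 10x Chromium 3′ kit v2, replicate 2 with kit v3.

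Insulin-like growth factor binding proteins are secreted proteins that hold insulin-like growth factors in the extracellular fluid and limit their access to the receptor. In mouse T cells, Igfbp4 transcripts are known from naive CD4 and CD8 cells, together with Lef1 and Ccr7, and are low in effector and memory cells. DNT cells of the spleen share features with both conventional and innate-like lymphocytes, and many of them carry natural killer (NK) cell receptors. Igfbp4 (ENSMUSG00000017493) lies on the plus strand of chromosome 11 at 99041244 to 99054392 in GRCm38, with 4 exons in the transcript Igfbp4-201. The 340 barcodes had been described as resting-like. Of the naive-state transcription factors tested below 0 were called higher, so the cells are called Igfbp4+ naive DNT barcodes here.

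Igfbp4 was rare in naive DNT cells and common in conventional T cells. It had at least 1 UMI in 2.67% of replicate 1 (exact binomial 95% interval 2.19% to 3.22%) and 3.59% of replicate 2 (3.15% to 4.07%). The share was 58.8% of 5008 CD4 barcodes, 39.4% of 4644 CD8 barcodes and 54.2% of 4266 TCRab barcodes. In activated DNT cells it was 0.895% of 1788 and 0.654% of 1530 barcodes. As a level in UMIs per 1000000 UMIs of the library (CPM) over all kept barcodes, Igfbp4 stood at 10.8 and 9.87 in naive DNT, 434 in CD4, 146 in CD8, 369 in TCRab, and 1.22 and 0.524 in activated DNT. The order of the libraries was thus CD4, TCRab, CD8, naive DNT and activated DNT, and the naive replicates lay close together in spite of their different kits. When every barcode was thinned to 1500 UMIs, which removes differences in depth and leaves out shallower barcodes, the naive shares were 1.40% and 1.29%, CD4 38.1%, CD8 18.2% and activated DNT 0.168% and 0.137%. Intervals here and below cover counting error only.

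**Figure D1:**
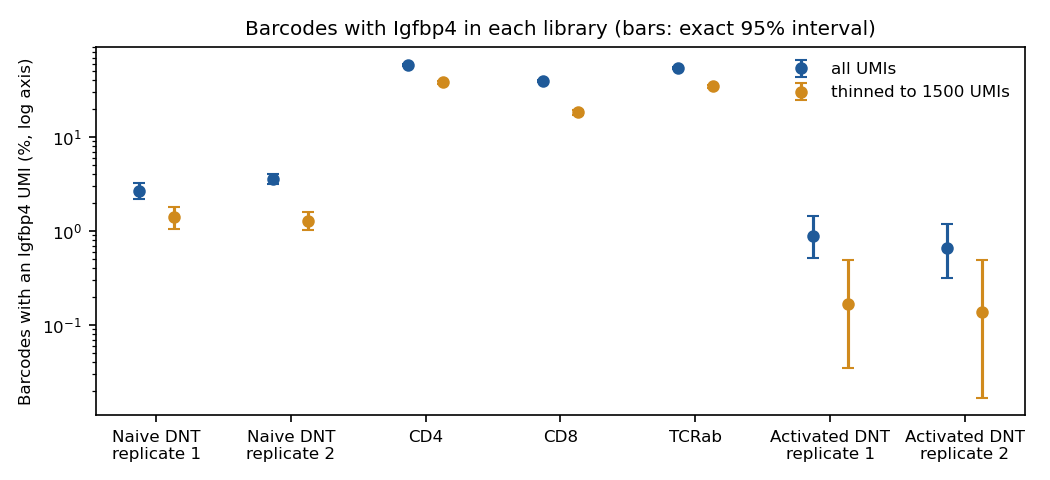
Percentage of kept barcodes with at least 1 Igfbp4 UMI (log axis) in each of the 7 libraries, with all UMIs (blue) and after thinning to 1500 UMIs (orange). Points are single libraries and bars exact binomial 95% intervals; the naive DNT libraries lie at 2.67% and 3.59%, between CD8 at 39.4% and activated DNT at 0.895% and 0.654%.

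The share in replicate 2 was not above that in barcodes with a B cell transcript. Among its barcodes with a Cd79a UMI, which were kept out of the classes as probable B cells, 7 of 178 (3.93%, 1.60% to 7.93%) had an Igfbp4 UMI, and 2 of 109 (1.83%) among those with at least 2 Cd79a UMIs. The highest count was 16 Igfbp4 UMIs in a barcode with 1 Cd79a UMI, and 2 in barcodes with more. In replicate 1 it was 1 of 16 (6.25%). Barcodes with Cd79a were not free of T cell RNA: at 1500 UMIs, 27.3% of them in replicate 2 had the CD3 chain gene Cd3e, and 13.9% of those with at least 2 Cd79a UMIs. Free RNA and barcodes of a B and a T cell together cannot be told apart here. The median depth was 6404 UMIs for the 178 barcodes and 7539 for the other kept barcodes of replicate 2. Most members sat at the edge of the rule: 65 of 106 and 136 of 234 had exactly 1 Igfbp4 UMI, and 41 (38.7%) and 98 (41.9%) had 2 or more, up to 6 and 16. Barcodes with 0 UMIs, the other class, also include cells whose Igfbp4 RNA was not captured.

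The 2 naive libraries held 16973908 and 52153580 UMIs in kept barcodes, and the CD4 and CD8 libraries 21618323 and 24059025. Over the genes shared by all libraries, the Igfbp4+ barcodes summed to 500173 and 2320178 UMIs, so a gene at 2 CPM in replicate 1 rests on 1 UMI. Members were slightly deeper than the other barcodes of their library, with median UMIs of 4356 against 4109.5 and 8525 against 7539. Their mitochondrial share was close to that of the others, at 2.50% against 2.53% and 4.88% against 4.77%. The naive replicates shared 1 barcode sequence with each other, and replicate 1 shared 20 with CD4 and 29 with CD8. The CD3 chain gene Cd3e was found in both classes. It stood at 478 against 435 CPM and 562 against 532 CPM, and did not pass the test (log2 fold change −0.03, adjusted p = 0.982). The coreceptor Cd4 had 0 UMIs in members of replicate 1 and 1 in replicate 2, and so had Cd8a.

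The main comparison set the Igfbp4+ barcodes against the other kept barcodes of the same library. Igfbp4+ barcodes had more RNA of the chemokine receptor Ccr9, the cytokine receptor chain Il6ra, the transcription factor partner Lmo4 and the signalling protein Ramp1, and less of Ccl5, Xcl1, granzyme A and many NK receptors. In 4 sums of UMIs (2 classes in 2 libraries, with the library as a block), 219 of 10630 genes were higher (2.06%) and 380 lower (3.57%), together 5.63%, in Igfbp4+ barcodes by edgeR's quasi-likelihood test with Benjamini-Hochberg adjusted p under 0.05. Of these, 178 and 346 moved the same way in both libraries, and 122 and 133 by at least 1.5-fold in both. The median log2 fold change over all tested genes was −0.03. The fit has 1 residual degree of freedom and takes the spread of each gene from the trend over all genes, and both classes of a library share its mice, sort and run. The standard errors (SE) and adjusted p below therefore do not measure how far the 2 replicates differ for a single gene. DESeq2 called 42 genes higher and 95 lower, of which 42 and 94 were among the edgeR calls. Since UMIs are summed over barcodes, fewer cells of a type and less RNA per cell cannot be told apart.

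The 12 genes leading the rises are those with the largest log2 fold change among called genes with at least 20 CPM in members and at least 1.5-fold more in both libraries. Ccr9 (a receptor for the gut chemokine CCL25, ENSMUSG00000029530, chromosome 9, 123678439 to 123784330) stood at 54.0 CPM in Igfbp4+ and 5.07 CPM in other barcodes of replicate 1, and at 85.3 and 17.6 CPM in replicate 2. Both libraries thus had several times more Ccr9 in Igfbp4+ barcodes, a log2 fold change of 2.38 ± 0.17 (SE, adjusted p = 6.82e-40). Il6ra (the IL-6 receptor chain, chromosome 3, 89864059 to 89913196) stood at 42.0 against 4.83 and 37.1 against 10.0 CPM, a log2 fold change of 2.11 ± 0.26 (adjusted p = 4.59e-14). Lmo4 (a LIM-domain protein that bridges transcription factors, chromosome 3, 144188530 to 144205220) stood at 254 against 70.9 and 551 against 178 CPM (1.59 ± 0.12, adjusted p = 2.89e-37). Ramp1 (a partner of the receptor for calcitonin gene-related peptide) stood at 306 against 78.9 and 244 against 96.6 CPM (1.47 ± 0.11, adjusted p = 6.99e-36). Dapl1, a gene of resting T cells, stood at 264 against 55.7 and 98.3 against 40.8 CPM (1.56 ± 0.13, adjusted p = 1.95e-30). These 5 genes stayed past the threshold when membership was taken again in barcodes thinned to 1500 UMIs, where the other 7 leading genes did not. Thinning leaves 82500 and 124500 UMIs in members of replicates 1 and 2, against 500173 and 2320178 before. Here and below, a gene can therefore miss the threshold after thinning for lack of counts alone.

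Those 7 were Ly6c1 and Ly6a (surface proteins of the Ly6 family), Matk and Ckb (a kinase that acts on Src kinases, and brain creatine kinase), Tesc (a calcium-binding protein), Cd40lg (the CD40 ligand of helper T cells) and Bcl2a1d (a BCL2 relative). Their log2 fold changes lay between 1.48 and 2.19, and each was higher in Igfbp4+ barcodes of both libraries. Cd40lg, for example, stood at 44.0 against 8.80 CPM in replicate 1 and 44.0 against 16.1 CPM in replicate 2. Ly6c1 stood at 38 against 7.70 and 21.6 against 4.34 CPM, while its neighbour Ly6c2 went the other way, from 1729 to 1000 and from 885 to 378 CPM (−1.14 ± 0.08, adjusted p = 8.94e-47). Ly6c1 and Ly6c2, Bcl2a1d and its copies, and the Klra and Klrc genes below are near-identical within their families, and how reads were divided among copies is not known here.

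The 12 genes leading the falls, by the same rule with the 20 CPM asked of other barcodes, included 3 chemokine genes, a granzyme and 4 NK receptor genes. Ccl5 (a chemokine stored by effector cells, chromosome 11, 83525778 to 83530518) stood at 3099 CPM in Igfbp4+ against 12214 CPM in other barcodes of replicate 1 and at 1527 against 6728 CPM in replicate 2, a log2 fold change of −2.19 ± 0.04. Xcl1 (lymphotactin) stood at 36.0 against 207 and 40.5 against 195 CPM (−2.45 ± 0.15, adjusted p = 2.62e-58). Gzma (granzyme A) stood at 10.0 against 63.0 and 1.72 against 30.8 CPM (−3.62 ± 0.33, adjusted p = 1.05e-24). Each of these 3 genes was lower in Igfbp4+ barcodes of both libraries. Slamf7 (an activating surface receptor of cytotoxic cells) fell from 60.9 to 12 and from 49.6 to 10.3 CPM, and Eomes (a transcription factor of cytotoxic and memory cells) from 63.3 to 10.0 and from 59.1 to 12.9 CPM, each by 2.39 on the log2 scale. The remaining leading genes were the NK receptor genes Klra6, Klrc1, Klre1 and Klrc2, the chemokine Ccl4, the protease inhibitor Serpina3g and the kinase Lrrk1, with log2 fold changes from −3.08 to −2.01. Of the 12 genes leading the falls, 3 (Ccl5, Xcl1 and Slamf7) stayed past the threshold after thinning.

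**Figure D2:**
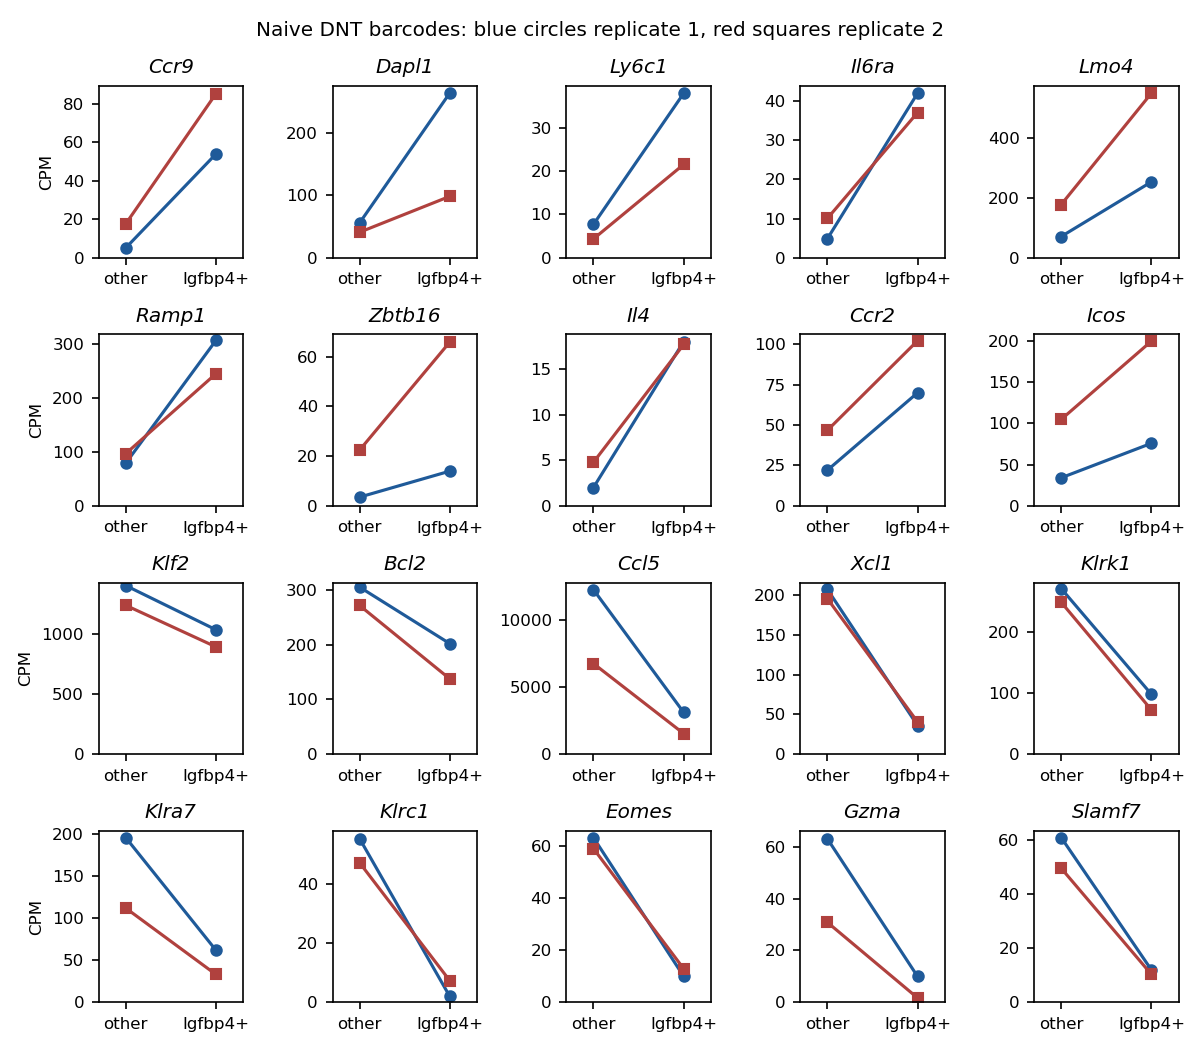
Levels (CPM) of 20 genes in Igfbp4+ and other barcodes of naive DNT replicates 1 and 2, as sums of UMIs per class. Each point is 1 class of 1 library; Ccr9, at 54.0 and 85.3 CPM in Igfbp4+ barcodes, lies above its other-barcode level and Ccl5, at 3099 and 1527 CPM, lies below it in both libraries.

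The number of Igfbp4 UMIs in a barcode went with the size of the difference for several of these genes, which is given as a description since the UMI count defines the classes. Ccl5 stood at 12214, 3892 and 1796 CPM in barcodes with 0, 1 and at least 2 Igfbp4 UMIs of replicate 1, and at 6728, 1899 and 1015 CPM in replicate 2. Klrk1 (NKG2D, an activating receptor of NK and cytotoxic cells) stood at 271, 142 and 26.4 CPM and at 249, 99 and 35.8 CPM. Dapl1 rose in the same order, with 55.7, 206 and 359 CPM in replicate 1 and 40.8, 90.1 and 110 CPM in replicate 2. For each of these genes, barcodes with 1 UMI had a level between those with 0 and those with at least 2. Ccl5 and Dapl1 are leading genes of the same comparison, so their order is no separate evidence on members with 1 UMI. Lmo4 differed little between 1 and at least 2 UMIs, with 248 against 264 and 524 against 587 CPM. Ly6c2 and Zbtb16 followed the order in both replicates, with steps between 1 and at least 2 UMIs that were small in replicate 2 (395 to 355 CPM, and 63.3 to 69.6 CPM).

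**Figure D3:**
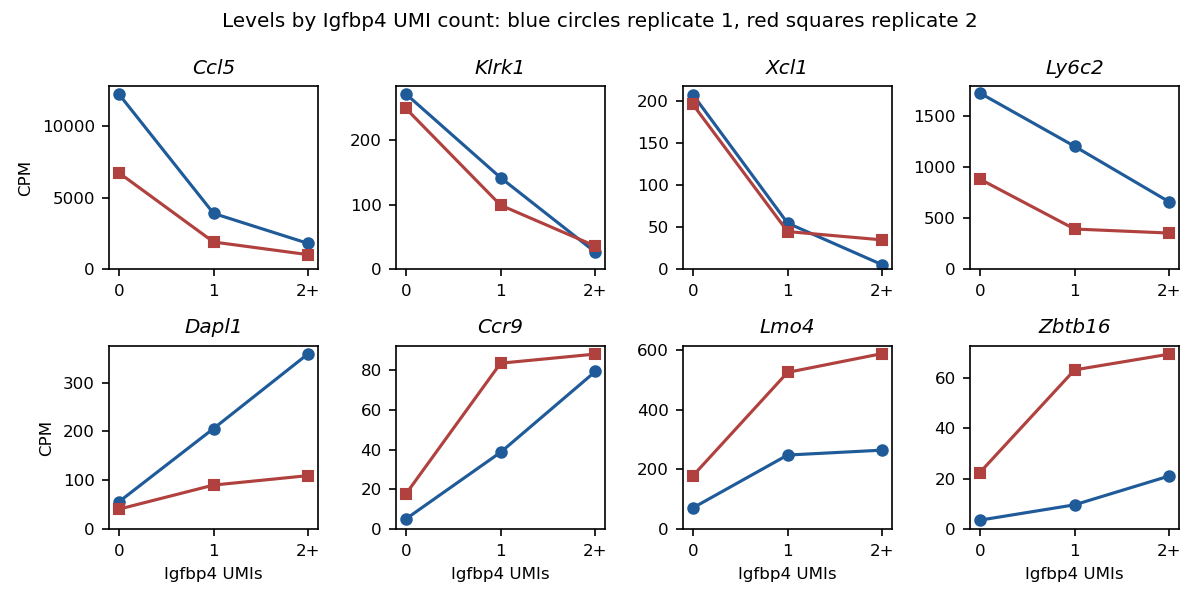
Level (CPM) of 8 genes in naive DNT barcodes with 0, 1 or at least 2 Igfbp4 UMIs, in replicate 1 (blue circles) and replicate 2 (red squares). Each point is the sum over 1 class of 1 library without an error bar; Ccl5 falls from 12214 to 1796 CPM and Dapl1 rises from 55.7 to 359 CPM in replicate 1.

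No naive-state transcription factor passed the test as higher with Igfbp4. Of 15 tested, 0 were higher and 7 lower in Igfbp4+ barcodes, with a median log2 fold change of −0.32. Klf2 (which drives lymph node homing genes) fell from 1409 to 1040 CPM in replicate 1 and from 1244 to 896 CPM in replicate 2 (−0.59 ± 0.07, adjusted p = 2.71e-13). Tsc22d3 (GILZ, a glucocorticoid-induced repressor) fell from 280 to 178 and from 385 to 214 CPM. Lef1 stood at 196 against 145 and 228 against 189 CPM (log2 fold change 0.21, adjusted p = 0.445), and Tcf7 (TCF1) at 152 against 191 and 293 against 316 CPM (−0.32, adjusted p = 0.113); these 2 factors of naive and memory T cells did not pass the test. At 1500 UMIs, Lef1 had a UMI in 29.5% of members (21.0% to 39.2%) against 19.2% of others (17.9% to 20.5%) in replicate 1 and in 33.8% (27.7% to 40.2%) against 24.4% (23.3% to 25.5%) in replicate 2, so its share was higher in members of both libraries. Ccr7 had one in 15.2% against 9.44% and 20.9% against 15.9%, also higher in both, with intervals that overlapped. These intervals take barcodes and not libraries as units, and no test was made on the shares. The calls varied with the setting. After thinning, which leaves far fewer UMIs, 0 of the 15 rose or fell, and 1 rose and 2 fell with members of at least 2 Igfbp4 UMIs. Of the 7 falls, 2 were called by DESeq2, and 2 by edgeR without barcodes over 2 times the median UMIs of their library. After leaving out barcodes with a Zbtb16 UMI, 3 fell and 1 rose.

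Homing and survival receptors moved in both directions. Of 15 tested, 3 were higher (Ccr9, Il6ra and the integrin chain Itgb7) and 6 lower, with a median of −0.10. Itgb7, which pairs with integrin chains for entry into gut tissue, stood at 332 against 202 and 423 against 284 CPM (0.51, adjusted p = 3.96e-04). The survival gene Bcl2 fell from 305 to 202 and from 272 to 137 CPM. Ccr7 (the lymph node chemokine receptor) stood at 90.0 against 71.0 and 151 against 145 CPM and Il7r (the IL-7 receptor) at 160 against 133 and 546 against 393 CPM, with adjusted p of 0.984 and 0.249. Among 13 growth-restraint genes of resting T cells, 1 rose (Dapl1) and 2 fell, with a median of 0.04, close to that of all genes. Among 20 other genes high in naive T cells, 4 rose and 5 fell, for example Trib2 (a pseudokinase), at 22.0 against 14.2 and 62.1 against 29.3 CPM, and Ms4a4b (a membrane protein of T cells), at 740 against 1041 and 509 against 808 CPM. Pdlim4 was 1 of the 4 that rose, on 2 against 0.55 CPM in replicate 1 and 3.02 against 0.182 CPM in replicate 2, which are 1 and 7 UMIs in members.

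Many NK receptor and cytotoxic genes fell. Of 27 NK and innate-like receptor and adaptor genes tested, 0 rose and 16 fell, with a median log2 fold change of −1.53. Klrk1 stood at 98.0 against 271 and 72.4 against 249 CPM (−1.78 ± 0.13, adjusted p = 2.40e-38), Klra7 (Ly49G) at 62.0 against 196 and 33.2 against 112 CPM (−1.84), and Fcer1g (an adaptor of activating receptors) at 98.0 against 307 and 89.6 against 213 CPM (−1.52). These 3 genes were lower in members of both libraries by more than 2-fold. Of 14 cytotoxic effector genes 1 rose (Tnf) and 11 fell, with a median of −1.54. Gzmb (granzyme B) had 0 UMIs in members of replicate 1 against 11.1 CPM in others and stood at 7.76 against 22.3 CPM in replicate 2 (−1.80), and Prf1 (perforin) at 2 against 2.08 and 19.0 against 33.7 CPM (−0.90, adjusted p = 0.0217), so its fall rested on replicate 2. DESeq2 called 12 falls of the NK list and 5 of the cytotoxic list, and 7 and 1 stayed past the threshold after thinning. At 1500 UMIs, Ccl5 was detected in 80.0% of members against 94.8% of others in replicate 1 and in 43.6% against 80.6% in replicate 2. Klrk1 was detected in 9.52% against 22.6% and 9.83% against 21.8%, and Fcer1g in 10.5% against 28.8% and 7.69% against 21.0%. In replicate 2, barcodes with a Cd79a UMI, a B cell gene, had Ccl5 in 46.6% of 176, Klrk1 in 6.82% and Fcer1g in 9.09%, and those with at least 2 Cd79a UMIs had them in 27.8%, 2.78% and 0.926% of 108. The shares of Ccl5 and Fcer1g in members of replicate 2 were thus not above those of barcodes with 1 or more Cd79a UMIs. Klrk1 was in 9.83% of members, which lies within the interval of its 6.82% in these barcodes (3.57% to 11.6%). Lef1 and Ccr7 stood differently, Lef1 in 33.8% of members against 11.9% and Ccr7 in 20.9% against 47.2%.

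Memory and effector genes split. Of 29 tested, 8 were higher and 14 lower, with a median of −0.24. Those that rose included Id2 (an inhibitor of E proteins), at 406 against 183 and 362 against 242 CPM (0.71), Lgals3 (galectin-3), at 114 against 60.9 and 248 against 77.2 CPM (1.32), Ccr2 (a receptor for inflammatory chemokines), at 69.98 against 22.0 and 102 against 46.7 CPM (1.15), and Cxcr6 (a receptor of tissue-resident cells), at 154 against 62.7 and 225 against 124 CPM (0.89). Those that fell included Il2rb (the IL-2 and IL-15 receptor chain), at 88.0 against 212 and 205 against 404 CPM (−1.20), and Ifng, at 20.0 against 48.9 and 35.8 against 92.3 CPM (−1.46). Nkg7 (a granule protein) stood at 862 against 1338 and 521 against 929 CPM (−0.87). Cd44 (an adhesion receptor of memory cells) fell less, from 58.4 to 40.0 and from 115 to 90.1 CPM (−0.49, adjusted p = 0.0122), and was not called by DESeq2 (adjusted p = 0.620). Lgals3 was not called without barcodes over 2 times the median UMIs (log2 fold change 0.41, adjusted p = 0.107). DESeq2 called all 8 rises and 8 of the 14 falls. After thinning, 0 of the 8 rises and 6 of the 14 falls stayed past the threshold.

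Some type 2, NKT-like and type 17 genes rose. Of 8 type 2 and NKT-like genes tested, 4 rose and 0 fell, with a median of 0.63. Zbtb16 (PLZF, the transcription factor of NKT and other innate-like T cells, chromosome 9, 48654297 to 48836222) stood at 14.0 against 3.54 and 65.9 against 22.5 CPM (1.49 ± 0.19, adjusted p = 1.08e-12). Il4 stood at 18.0 against 2.02 and 17.7 against 4.78 CPM (2.03, adjusted p = 5.71e-07), and Icos (a costimulatory receptor) at 76.0 against 34.1 and 200 against 105 CPM (0.87). All 3 were higher in members of both libraries. Of 15 type 17 genes 4 rose and 0 fell, with a median of 0.44: Rora, a nuclear receptor of type 17 cells, stood at 46.0 against 17.7 and 197 against 106 CPM (0.86). Il22 rose on replicate 2 alone (25.9 against 4.08 CPM), where 5 barcodes held 58 of its 60 UMIs in members, and had 0 UMIs in members of replicate 1. DESeq2 called 2 of the type 2 genes and 1 of the type 17 genes, and without barcodes over 2 times the median UMIs 1 type 17 gene remained called. After thinning 0 genes of either list were called. With members of at least 2 Igfbp4 UMIs, 4 type 2 and NKT-like genes rose, while 1 type 17 gene rose and 2 fell. Of 6 CD4 lineage genes 3 rose, Cd40lg, Gata3 and Zbtb7b (ThPOK, the CD4 lineage factor), while Foxp3 had 0 and 1 UMIs in members. Of 4 CD8 lineage genes 1 rose and 2 fell, Runx3 (the CD8 lineage factor) only just (76.0 against 83.6 and 153 against 191 CPM, adjusted p = 0.0495), and Cd8b1 stood at 40.0 against 14.8 and 8.19 against 5.21 CPM (0.90, adjusted p = 0.0802).

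Smaller groups gave mixed results. Of 24 genes of recent stimulation 5 rose and 5 fell, with a median of 0.00: Egr1 stood at 18.0 against 14.7 CPM in replicate 1 and 243 against 65.7 CPM in replicate 2, whereas Nr4a2, another early gene, fell from 51.5 to 12 and from 72.8 to 22.0 CPM. Of 18 interferon response genes 4 rose and 0 fell (median 0.31). Among them was Isg15 at 46.0 against 27.7 and 72.4 against 45.6 CPM (0.57, adjusted p = 0.00911). DESeq2 called 0 of the 4, and 8 rose without barcodes carrying Zbtb16. Of 8 GIMAP GTPases, which act in lymphocyte survival, 5 fell, for example Gimap7 from 139 to 90.0 and from 119 to 53.9 CPM. Of 8 regulatory T cell genes 3 rose and 3 fell, and Ikzf2 (Helios) fell from 322 to 144 and from 422 to 279 CPM. Of 9 coinhibitory receptors 1 rose (Cd5, an inhibitor of receptor signalling) and 2 fell, Cd160 from 171 to 84.0 and from 170 to 112 CPM, and Lag3 from 15.6 to 6 and from 9.41 to 2.16 CPM. Of 21 genes of the T cell receptor complex and its proximal signalling 3 rose and 3 fell, with Cd5 at 86.0 against 38.7 and 94.0 against 63.4 CPM and Cd6, a related surface receptor, at 99.97 against 49.4 and 113 against 60.2 CPM.

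Cell cycle and ribosomal genes rested on few deep barcodes or on small shifts. Of 20 proliferation genes 12 rose, but 5 of the 12 moved the same way in both libraries, DESeq2 called 0 and, without barcodes over 2 times the median UMIs, 0 rose and 1 fell. In replicate 2, 5 of the 234 members held 62 of the 67 Mki67 UMIs and 177 of the 178 Ube2c UMIs. Of 20 cytosolic ribosomal protein genes 16 fell, with a median of −0.16, while DESeq2 called 1 and relative log expression scaling in edgeR 7. Of these 16, 10 moved the same way in both libraries, and 0 of the list fell without barcodes over 2 times the median UMIs. Over all genes in the main fit, 59 of the 97 tested with symbols starting with Rps or Rpl fell and 0 rose. Of the insulin-like growth factor list, 6 of 20 genes were tested and 0 were called, while 12 had 0 UMIs in members. Igf1r, the receptor, stood at 16.0 against 5.19 and 30.6 against 27.1 CPM (0.24, adjusted p = 0.799), so no change in this list was detectable at this depth.

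Markers of other cells gave 0 rises: 3 of 5 tested B cell markers and 1 of 5 myeloid markers fell, and 0 of 5 red cell and 0 of 2 stromal markers were called. Cd79a was at 0 by the rule. The summed B cell markers stood at 38 CPM in members against 90.3 in others of replicate 1 and 36.6 against 63.8 in replicate 2. Myeloid markers stood at 338 against 359 and 186 against 194 CPM, and stromal markers at 32.0 against 26.1 and 48.7 against 36.0 CPM. Red cell genes stood at 11246 against 3545 CPM in replicate 1, where 1 member barcode held 5508 of the 5625 UMIs, and at 10.3 against 881 CPM in replicate 2. In each of 3 other fits, with members of at least 2 Igfbp4 UMIs, after thinning and without barcodes over 2 times the median UMIs, 4 of the 5 red cell markers fell. The platelet and γδ T cell lists had 0 genes tested, and platelet markers summed to 0 and 0.4 CPM in members. The part of these markers in the results was not tested.

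The same division by Igfbp4 was made in the CD4 and CD8 libraries, which the choice of cells did not use. There 104 of 9975 genes were higher (1.04%) and 250 lower (2.51%) in Igfbp4+ barcodes, together 3.55%. In these libraries 3 of 15 naive-state factors rose and 1 fell, Lef1 among the rises (0.43, adjusted p = 2.25e-09), 0 of 29 memory and effector genes rose and 16 fell (median −0.97), and Ccr7 rose by 0.38. Ccl5 (−1.98) and Klrk1 (−1.51) fell there as in naive DNT. Klrk1 had only 31 UMIs in the CD4 library, 17 of them in Igfbp4+ barcodes, so its fall rested mainly on the CD8 library. Of the 185 genes higher in naive DNT that could be tested in CD4 and CD8, 8 were also higher there (4.32%, and 7.69% of the 104 rises in CD4 and CD8) and 25 were lower. Of the 360 lower genes, 85 were also lower (23.6%, and 34% of the 250 falls) and 8 were higher.

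A test of the difference between the 2 divisions, as an interaction in 1 fit of 8 sums, called 270 of 11026 genes with a more positive change in naive DNT (2.45%) and 250 with a more negative one (2.27%), together 4.72%. Among the 12 leading rises of naive DNT, 9 differed from CD4 and CD8, including Il6ra (by 1.72), Lmo4 (1.42) and Ramp1 (1.34), whereas Ccr9 (adjusted p = 0.185), Dapl1 (0.552) and Ly6a (0.532) did not pass. Among the 12 leading falls 3 differed, Gzma, Klrc1 and Eomes. Of all 219 rises of naive DNT 153 passed the interaction test, and of all 380 falls 173 did. These genes were chosen by their change in naive DNT, which the interaction uses again, so the counts are a description only. Klf2 fell in naive DNT and did not pass the test in CD4 and CD8 (0.17), with a difference of −0.72 (adjusted p = 2.78e-08). Lgals3 rose in naive DNT and fell by 2.17 in CD4 and CD8, a difference of 3.59 (adjusted p = 1.93e-81), and Ccr2 differed by 3.10. Klrd1 (CD94) and Cd7 (a T and NK cell surface protein) fell in naive DNT by 1.10 and 0.79 and had log2 fold changes of 0.14 and 0.03 in CD4 and CD8, with differences of −1.25 and −0.76 that passed. Replicate 2 was made with another kit than CD4 and CD8. The difference is taken within libraries, and a part of the kit in it was not tested.

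**Figure D4:**
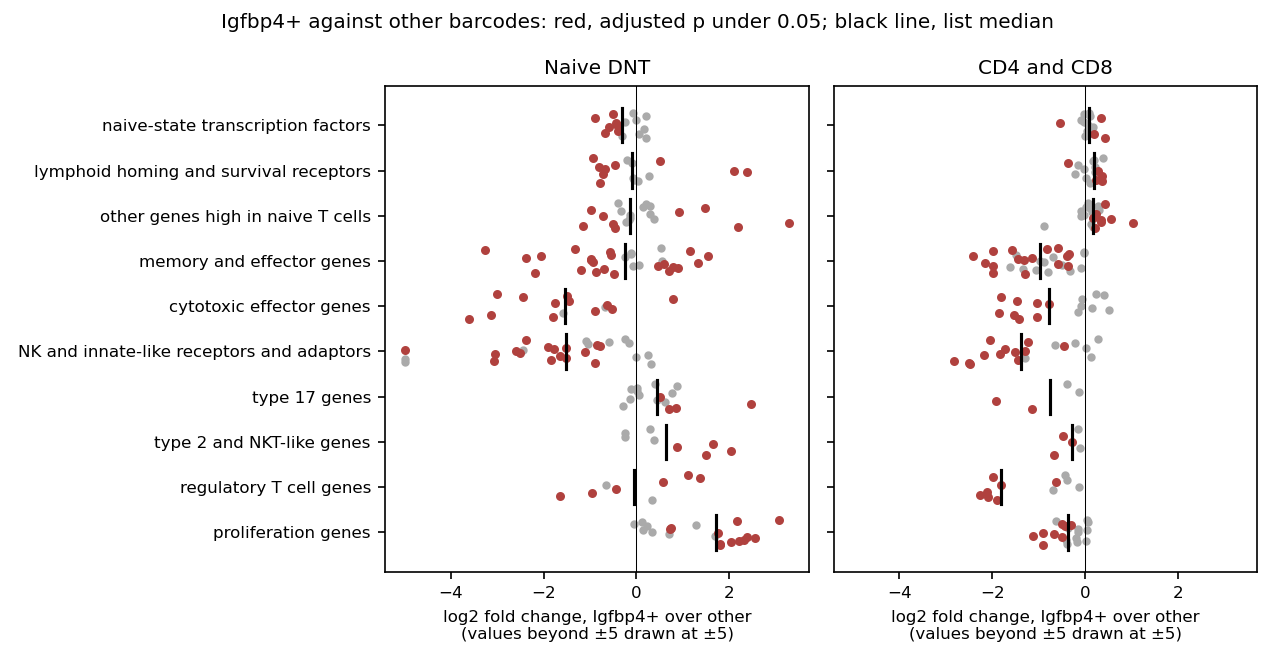
Log2 fold change of each tested gene of 10 lists between Igfbp4+ and other barcodes, in naive DNT (2 libraries) and in CD4 and CD8 (1 library each); points are genes, and values beyond 5 in size are drawn at the limit. Naive-state factors have a median of −0.32 in naive DNT, and NK receptor and cytotoxic genes medians of −1.53 and −1.54.

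The 340 barcodes were not uniform. The pairs below were chosen after the values were seen. Of members with a Dapl1 UMI, 31 in replicate 1 and 44 in replicate 2, 0% and 9.1% also had Zbtb16, and 9.7% and 15.9% had Lmo4, against 40.0% and 58.9% of members without Dapl1. Of the 71 members of replicate 2 with Zbtb16, 78.9% had Ccr2, 88.7% Lmo4, 94.4% Ramp1 and 5.6% Dapl1. Of those without it, 14.7% had Ccr2. In replicate 1 only 5 members had Zbtb16, of which 5 had Ccr2 and 0 had Dapl1. Dapl1 and Zbtb16 therefore seldom occurred in the same Igfbp4+ barcode. Depth differed between these subsets: members with Zbtb16 had a median of 10351 UMIs in replicate 2 against 7678 without, and members with Dapl1 7723 against 8786.5.

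Against other ways of grouping naive DNT cells, Igfbp4+ barcodes were spread over several. Barcodes with both Dapl1 and Ly6c2 made up 23.6% of members against 9.23% of others in replicate 1 and 13.2% against 7.41% in replicate 2. A UMI of Il4, Cd40lg or Zbtb16 was present in 18.9% against 3.80% and in 42.3% against 14.9%. Any of Klrk1, Klra7, Klrc1 or Klra6 was present in 26.4% against 60.3% and in 31.6% against 63.6%, and Fcer1g together with Cd7 in 15.1% against 41.1% and 16.7% against 38.3%. A UMI of Dapl1, Ccr9 or Zbtb16 was present in 46.2% of members against 12.5% of others and in 61.5% against 22.5%, so many members carried none of these 3 genes at this depth. Any coreceptor UMI (Cd4, Cd8a or Cd8b1) was present in 9.43% against 5.20% and in 7.26% against 3.53%.

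**Figure D5:**
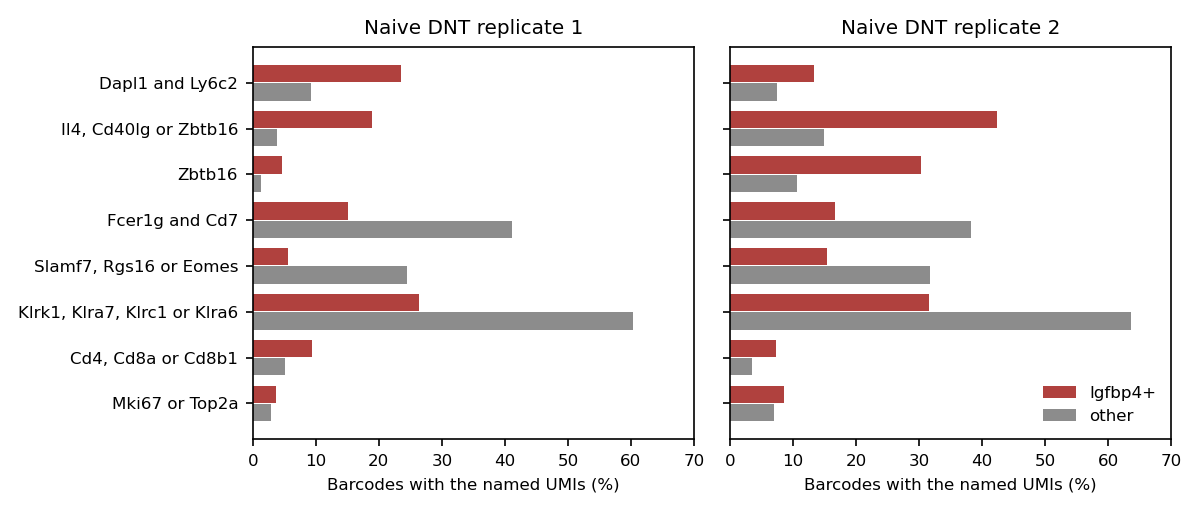
Percentage of Igfbp4+ (red) and other (grey) naive DNT barcodes that carry the UMIs named on the left, in replicates 1 and 2. Each bar is 1 class of 1 library; the NK receptor rule covers 26.4% and 31.6% of members against 60.3% and 63.6% of others, and the Il4, Cd40lg or Zbtb16 rule 18.9% and 42.3% against 3.80% and 14.9%.

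Receptor constant genes, which are in the reference of kit v3 only and so were measured in replicate 2 alone, showed αβ transcripts in nearly all cells and γδ transcripts more often in members. Trac (the α chain) had a UMI in 96.6% of members and 94.3% of others, and Trbc2 (a β chain) in 99.6% and 99.1%. Trdc (the δ chain) had a UMI in 22.6% of 234 members (17.5% to 28.6%) against 7.52% of 6291 others (6.88% to 8.20%), at 87.0 against 35.0 CPM. Tcrg-C1 (a γ chain) had 41.9% against 18.6%, at 108 against 47.1 CPM. Trav11 and Traj18, the segments of the invariant NKT receptor in mice, had a UMI in 3.85% against 0.731% and 2.99% against 0.715%, which are 9 and 7 members. Transcripts of γδ receptor genes and of the invariant NKT segments were therefore more frequent in members. The sort had kept TCRγδ+ and tetramer-binding cells out. The part of barcodes with these transcripts in the higher Zbtb16, Rora and Il4 was not tested. No test was made on 1 library, and members were slightly deeper (8525 against 7539 UMIs).

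Igfbp4+ naive DNT barcodes were also compared with the whole CD4 and CD8 libraries. With 1 library on the other side there is no test, and a gene was counted when both replicates differed from the comparator by 2-fold or more the same way and the higher libraries each had 20 CPM or more. By that rule 236 of 4097 genes were higher (5.76%) and 40 lower (0.976%) than in CD4, and 237 of 4013 higher (5.91%) and 20 lower (0.498%) than in CD8. The counts rest on asking for both replicates. Without replicate 1 they were 2099 and 133 of 5489 genes for CD4 and 2248 and 109 of 5471 for CD8. Without replicate 2 they were 310 and 142 of 4198 for CD4 and 340 and 89 of 4112 for CD8. Replicate 2 differs from these libraries in its kit, and kit and cell type cannot be told apart in it. Against the Igfbp4+ barcodes of these libraries the counts were 267 (6.6%) and 36 (0.89%) for CD4 and 262 (6.55%) and 19 (0.475%) for CD8. The other naive DNT barcodes gave 222 higher and 60 lower of 4030 genes against CD4, and 189 and 21 of 3937 against CD8.

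The genes above CD4 by most included Pxdc1 at 69.98 and 158 CPM against 3 UMIs in the CD4 library (502 times as high, counting interval 158 to 2552, and 1132 times), and Sdc1 (syndecan-1, a surface proteoglycan) at 29.99 and 43.1 CPM against 1 UMI. Klra7 had 0 UMIs in CD4. Klrk1 was 68.0 times (42.5 to 110) and 50.3 times (34.1 to 76.4) as high as in CD4, and Fcer1g 25.7 and 23.5 times. These receptor genes were thus lower in Igfbp4+ than in other naive DNT barcodes and above the CD4 library in CPM, and a part of free RNA in that level was not tested. Ccl5 was 17.5 and 8.63 times as high as in CD4 and 1.99 and 0.98 times as high as in CD8. Fos (an AP-1 subunit) was 10.0 and 10.4 times as high as in CD4 and 15.2 and 15.8 times as high as in CD8. Relative to CD8, Ckb was 79.0 and 99.9 times, Cd40lg 81.1 and 81.0 times, and Dusp1 (a MAP kinase phosphatase) 35.9 and 55.1 times as high. The recent stimulation genes, with Fos and Dusp1 among them, summed to 7289 and 15536 CPM in members and 6995 and 13409 CPM in other naive DNT barcodes. In CD4 they summed to 1910 CPM in Igfbp4+ and 2104 CPM in other barcodes, and in CD8 to 1490 and 1443 CPM. As a sum, their high level was thus not particular to members. Zbtb16 had 0 UMIs in the CD8 library but did not meet the rule against CD4 or CD8, since members of replicate 1 had 14.0 CPM.

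The lower genes were led by the coreceptors. Cd4 stood at 0 and 0.431 CPM against 137 CPM in the CD4 library, and Cd8a at 0 and 0.431 against 491 CPM and Cd8b1 at 40.0 and 8.19 against 1307 CPM in the CD8 library. Pdlim4 stood at 2 and 3.02 against 74.8 CPM in CD4, Ly6c1 at 38 and 21.6 against 206 CPM, and Izumo1r (a folate receptor relative of T cells) at 48.0 and 43.5 against 215 CPM. Gzma stood at 10.0 and 1.72 against 60.8 CPM in CD8. Genes of naive cells and of homing stood on both sides of CD4. Klf2 was 1.17 and 1.01 times its CD4 level, Lef1 0.48 and 0.56 times, Ccr7 0.31 and 0.53 times, S1pr1 (the receptor for exit from lymphoid organs) 0.72 and 1.65 times and Il7r 1.31 and 4.46 times, none of which met the rule. Dapl1 was 0.39 and 0.15 times its CD8 level, which met it, and 0.64 and 0.24 times its CD4 level, which did not. Ccr9 was 14.2 and 22.4 times as high as in CD4 but 0.87 and 1.37 times as high as in CD8.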

How the data were processed

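The deposited files give UMI counts for each gene and barcode as whole numbers, without normalization by the authors. Per the submitters' processing notes they come from Cell Ranger 2.1.0 and 3.0.1 on mm10 (GRCm38), and further alignment and counting settings are not given in the sources used here. The references list 27998 genes (kit v2) and 31053 genes (kit v3). Tests used the 27514 shared IDs. Barcodes were filtered by the rule given with the cells, and doublets were not called, leaving out barcodes over 2 times the library's median UMIs being tried instead. The members and gene lists were chosen with earlier results of these data known.

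UMIs were summed per library and class without Igfbp4, Cd79a and Lyz2, filtered (filterByExpr), scaled by TMM and tested with edgeR 4.0.16 (robust quasi-likelihood F test, library as a block, Benjamini-Hochberg at 0.05) in R 4.3.3, with limma 3.58.1. The biological coefficient of variation was 0.103 for naive DNT, 0.0606 for CD4 and CD8 and 0.0710 for the interaction, which has 2 residual degrees of freedom. SE is the log2 fold change divided by the square root of F, an approximation. The tests were checked on simulated counts with the same spread for all genes, which the real counts need not have. DESeq2 1.42.0 was an alternative. Levels are CPM over shared genes. Ratios to CD4 and CD8 have exact conditional 95% intervals, with a floor of 3 UMIs. Shares have exact binomial intervals. Summaries used NumPy 2.4.6 and SciPy 1.17.1 under Python 3.11.15, and plots matplotlib 3.10.9. Coordinates are from GENCODE vM21 on GRCm38.

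Named genes were up to 12 in each direction with the largest log2 fold change among genes past the threshold with at least 20 CPM in the higher class and at least 1.5-fold the same way in both libraries, up to 4 members of each list past the threshold, a fixed set of look-up genes, up to 10 in each direction against CD4 and CD8, and up to 8 by interaction. The same-numbered classes come from the same library, so the block pairs classes by construction. Nothing says that the CD4 and CD8 libraries shared mice with naive DNT. Results that need items withheld from this text are not reported here.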

Additional observations from a re-analysis of the deposited data

Results flagged for a closer look

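The following genes stood out because their change with Igfbp4 differed between naive DNT and the CD4 and CD8 libraries by the interaction test (edgeR, Benjamini-Hochberg adjusted p). Values are the log2 fold change in naive DNT minus that in CD4 and CD8. For 8 genes near 0 counts in CD4 and CD8 the fitted values depend on the prior count and bound nothing. They were Gm26737 at 6.32 (adjusted p = 3.53e-10), Hes1, a Notch target, at 6.20 (0.0141), P2ry1, a nucleotide receptor, at 6.12 (0.00256), Oaf at 5.88 (0.00561), Gm28529 at −5.01 (0.0466), Cd163l1 at 4.95 (6.32e-06), Il9r, the IL-9 receptor, at 4.49 (0.0114) and Gm4208 at 4.49 (7.95e-04). In Gm26737, 1 member barcode of replicate 2 held 29 of the 30 UMIs. Cd163l1, a scavenger receptor known from γδ T cells, stood at 12 against 0.794 CPM in replicate 1 and 15.1 against 3.98 CPM in replicate 2.

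Among genes at higher levels, Klf2 had a difference of −0.72 and was lower with Igfbp4 in naive DNT. Cd44 had a difference of 0.81 (adjusted p = 1.70e-04), falling in both settings and more in CD4 and CD8 (−1.29 against −0.49). Isg15 had a difference of 0.52 (adjusted p = 0.0124). The causes of these differences were not tested.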

How the results depend on the processing

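The counts of genes called depended on the test and on depth. For Igfbp4+ against other naive DNT barcodes (219 higher, 380 lower), DESeq2 gave 42 and 95, members with at least 2 Igfbp4 UMIs 124 and 243, thinning to 1500 UMIs 8 and 25, leaving out barcodes with Zbtb16 132 higher, and leaving out barcodes over 2 times the median UMIs 240 lower. Without the replicate block, which here is the library, 0 and 0 were called by edgeR, with 227 genes at an unadjusted p under 0.05. For CD4 and CD8 (104 and 250) the same changes gave 2 and 15 (DESeq2), 15 and 109 (at least 2 UMIs), 5 and 33 (thinned), 35 and 127 (high UMIs left out) and 0 and 0 with no replicate block (140 unadjusted). For the interaction (270 and 250) they gave 23 and 69, 140 and 113, 13 and 77, 166 and 134, and 0 and 0 (144 unadjusted). There, leaving out Zbtb16 barcodes gave 171 and 123, and Mki67 or Top2a barcodes 177 and 162. Thinning leaves 55 and 83 members with 82500 and 124500 UMIs, so fewer genes can pass. It moved the median log2 fold change over all tested genes from −0.03 to −0.15, and no low-count filter to −0.16. The cause of the other changes was not tested. Leaving out Zbtb16, Mki67 or Top2a barcodes was chosen after seeing the data.

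Against CD4 (236 and 40), a minimum of 10 CPM gave 405 and 64 of 5988 genes and of 50 CPM 94 and 18 of 1943. Single replicates gave 310 to 2099 and 133 to 142. Against CD8 (237 and 20), 10 CPM gave 395 higher of 5871 genes, 50 CPM 91 and 10 of 1872, and single replicates 340 to 2248 and 89 to 109. The naive share fell to 1.40% and 1.29% after thinning and to 1.03% and 1.5% with at least 2 UMIs.

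Of 168 named genes, DESeq2 gave 85 the same call, relative log expression scaling 157 and no low-count filter 165. Thinning gave 31 of the 156 tested there the same call. Signs turned after thinning for S100a6 (−0.40), Lgals1 (−0.15), Lgals3 (−0.32), Tnf (−0.37), Maf (−0.11), Tnfrsf18 (0.11), Top2a (−0.20), Mcm3 (−0.30) and Mcm5 (−0.61). Without high-UMI barcodes they turned for Mki67 (−0.84), Top2a (−0.84), Birc5 (−0.89), Rrm2 (−1.70), Mcm5 (−0.26) and Ube2c (−1.42). Birc5 turned with DESeq2 (−0.079) and Rrm2 with at least 2 UMIs (−0.33) and without Mki67 or Top2a barcodes (−2.43). In replicate 1 alone 16 named genes had the opposite sign and in replicate 2 alone 1 gene (Btg1), mostly cell cycle and ribosomal genes. The log2 fold changes of the single replicates ranged as follows: Klf3 −0.45 to 0.035, Btg1 −0.18 to 0.017, Actn1 −0.47 to 0.0079, Il22 −0.69 to 2.40, Nfkbid −0.41 to 0.93, Mki67 −1.30 to 1.88, Top2a −0.13 to 2.09, Ccna2 −1.15 to 1.92, Ccnb1 −0.69 to 1.93, Birc5 −2.30 to 2.69, Rrm2 −2.64 to 2.11, Ube2c −1.95 to 3.34, Rps3 −0.074 to 0.0056, Rps4x −0.083 to 0.027, Rps6 −0.061 to 0.0034, Rpl7 −0.059 to 0.0093 and Rpl12 −0.081 to 0.079.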
